A study of Mus musculus with 6 samples.

Results

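Cholesterol and fatty acids are built by enzymes whose genes are controlled together, and 41 such genes were followed here in cultured embryonic ureters. They comprised the enzymes of the mevalonate and sterol pathway, the enzymes of fatty acid synthesis and desaturation, the proteins that sense, move and export sterols, and the transcription factors of the pathway. The genes were taken from a list of symbols and kept if they had at least 10 counts in at least 3 of 6 samples. All 41 of the 41 listed genes met this condition, out of 56748 gene identifiers in the count table. They were sorted by textbook knowledge into 20 targets of SREBP2, 8 targets of SREBP1, 4 targets of the liver X receptors (LXR), 5 regulators, 2 proteins of lysosomal sterol export and 2 further enzymes of the pathway.

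The ureter of the mouse embryo is a tube of epithelium (the later urothelium) wrapped in mesenchyme. Ureters of wildtype NMRI embryos were dissected at E12.5 (embryonic day) and cultured on transwell membranes for 18 h, either with 15 mM LiCl or with water as the control. LiCl inhibits the kinase GSK3B and thereby activates canonical WNT signaling, and the comparison asked which transcripts were deregulated by it. RNA-Seq was done on 3 samples per group. All groups shared the same medium, DMEM/F12 with GlutaMAX, antibiotics, amino acids and pyruvate. The labels list no serum for it, but the methods of the study describe organ cultures with and without fetal calf serum and do not say which was used for RNA-Seq, so the presence of serum, a source of sterols and fatty acids, is not known here. LiCl was applied to the whole explant, epithelium and mesenchyme together, and lithium has other targets beside GSK3B. In longer cultures with LiCl, the paper found the WNT target *Axin2* ectopically in the epithelium. In the mesenchyme it reported *Axin2* as largely unchanged. The bulk samples used here do not separate the responses of the 2 tissues. The number of ureters per sample and whether the samples came from separate litters were not given in the sources used here, so p-values measure the spread between these samples, which may be technical in part.

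Cells make cholesterol from acetyl-CoA through mevalonate, farnesyl pyrophosphate, squalene and lanosterol. SREBP1 and SREBP2 are membrane-bound transcription factors of the endoplasmic reticulum. When sterols are scarce, SCAP escorts them to the Golgi, where the proteases encoded by *Mbtps1* and *Mbtps2* release the active factor, and when sterols are plentiful, INSIG1 and INSIG2 hold SCAP back. SREBP2 mainly drives the sterol enzymes and SREBP1 mainly those of fatty acid synthesis, whereas LXR is activated by oxysterols and drives sterol export. In the embryo, cholesterol also serves as the covalent modifier of SHH, a signal sent by the ureteric epithelium.

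Total counts ranged from 28473436 to 31266945 per sample, and the ranges of the groups overlapped. Levels are given as CPM (the count of a gene relative to the library total) after scaling by the trimmed mean of M-values (TMM), and differences as log2 fold changes of LiCl over control with their standard error (SE). The test was the quasi-likelihood test of edgeR with Benjamini-Hochberg adjustment over all 18188 genes tested, and a gene is said to have risen or fallen at an adjusted p under 0.05. In bulk samples, fewer cells of a type and less RNA per cell cannot be told apart. Markers of both ureteric tissues were present in every sample, with the mesenchymal markers at a summed 3143 to 4757 CPM and the epithelial markers at 858 to 1440 CPM. LiCl replicates 1 and 3 stood apart in skeletal muscle markers, with a summed 73.8 and 109 CPM against 31.5 to 39.3 CPM in the other samples.

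Of the 41 genes, 28 fell, 4 rose and 9 did not pass the test. Without LiCl replicates 1 and 3, which leaves 1 LiCl sample that is assumed to vary like the controls, 21 genes fell and 3 rose. Among all genes tested, 22.4% fell and 21.1% rose at the same threshold. At the thresholds of the study, which also ask for a log2 fold change above 1 or below -1, 5 of the 41 genes were lower and none was higher, and these were *Insig1*, *Hmgcs1*, *Tm7sf2*, *Idi1* and *Msmo1*. The background at those thresholds was 4.59% lower and 2.74% higher. In 28 of the 41 genes every LiCl sample was below every control, which held for 27.8% of all genes tested, and in 5 genes every LiCl sample was above every control, which held for 26.4%. The median log2 fold change was -0.37 over the 41 genes and -0.01 over all genes tested.

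**Figure D1:**
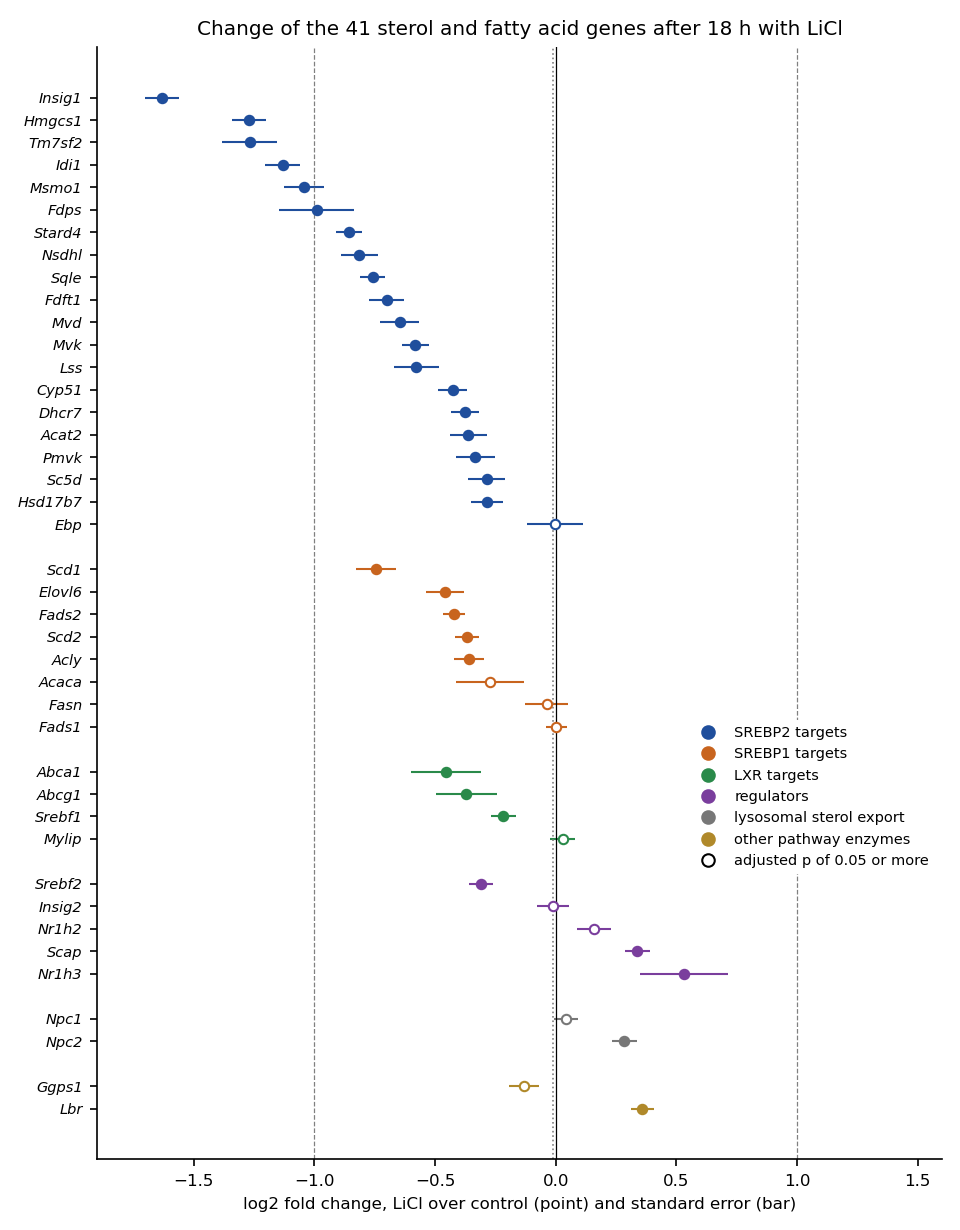
Log2 fold change of LiCl over control (x axis, points) with its standard error (bars) for each of the 41 genes, grouped by class. Filled points had an adjusted p under 0.05, the dashed lines mark log2 fold changes of -1 and 1, and the dotted line marks the median of all genes tested (-0.01). In the class of SREBP2 targets 19 of 20 points are filled and lie below 0, Insig1 being the lowest at -1.63.

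The 5 genes that met the thresholds of the study were all SREBP2 targets, and their promoters are shown because SREBP2 acts at the start sites of its targets. The windows span 250 bases before to 50 bases after the RefSeq start on the mouse build GRCm38.p6, an older build than that of the counts. Capitals mark the CCAAT box, which is bound by NF-Y, a partner factor of the SREBPs, and forms related to the sterol regulatory element (CACNCCAC and TCACNCCA, whose matches can overlap), each searched on both strands. By their Ensembl identifiers the genes are ENSMUSG00000093930 (*Hmgcs1*), ENSMUSG00000058258 (*Idi1*), ENSMUSG00000045294 (*Insig1*), ENSMUSG00000031604 (*Msmo1*) and ENSMUSG00000024799 (*Tm7sf2*). The windows lie at chr13:119690101-119690400 (plus strand) for *Hmgcs1*, chr13:8885356-8885655 (plus strand) for *Idi1*, chr5:28071162-28071461 (plus strand) for *Insig1*, chr8:64733529-64733828 (minus strand) for *Msmo1* and chr19:6067801-6068100 (minus strand) for *Tm7sf2*.
Hmgcs1: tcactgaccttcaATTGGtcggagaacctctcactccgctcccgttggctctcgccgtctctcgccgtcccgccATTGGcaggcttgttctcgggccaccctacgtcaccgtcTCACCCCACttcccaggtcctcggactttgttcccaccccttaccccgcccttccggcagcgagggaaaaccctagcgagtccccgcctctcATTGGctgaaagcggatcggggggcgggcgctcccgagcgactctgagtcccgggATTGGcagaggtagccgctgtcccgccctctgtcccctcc
Idi1: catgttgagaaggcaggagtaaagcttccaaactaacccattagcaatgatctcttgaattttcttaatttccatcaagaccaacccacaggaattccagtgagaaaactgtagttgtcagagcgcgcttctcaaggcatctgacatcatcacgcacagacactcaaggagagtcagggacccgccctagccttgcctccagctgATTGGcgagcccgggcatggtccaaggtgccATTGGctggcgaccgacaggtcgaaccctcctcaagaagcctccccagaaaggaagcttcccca
Insig1: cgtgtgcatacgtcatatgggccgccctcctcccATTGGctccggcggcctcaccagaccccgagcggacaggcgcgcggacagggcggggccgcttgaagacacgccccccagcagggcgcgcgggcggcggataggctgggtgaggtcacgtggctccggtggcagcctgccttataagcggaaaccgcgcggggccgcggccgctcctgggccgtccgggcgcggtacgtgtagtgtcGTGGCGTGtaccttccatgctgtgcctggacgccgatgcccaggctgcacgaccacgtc
Msmo1: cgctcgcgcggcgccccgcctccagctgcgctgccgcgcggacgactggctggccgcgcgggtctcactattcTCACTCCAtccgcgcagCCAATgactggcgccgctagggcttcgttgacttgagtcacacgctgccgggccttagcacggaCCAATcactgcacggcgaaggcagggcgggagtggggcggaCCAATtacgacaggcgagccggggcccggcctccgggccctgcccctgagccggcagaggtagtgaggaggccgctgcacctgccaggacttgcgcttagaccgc
Tm7sf2: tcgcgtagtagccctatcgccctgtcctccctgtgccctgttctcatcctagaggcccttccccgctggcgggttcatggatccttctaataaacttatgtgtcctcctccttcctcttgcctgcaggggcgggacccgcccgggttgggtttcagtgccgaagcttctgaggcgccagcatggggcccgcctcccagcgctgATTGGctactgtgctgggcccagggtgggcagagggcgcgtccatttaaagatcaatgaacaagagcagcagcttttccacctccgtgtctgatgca

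All 5 windows held a CCAAT box, with 4 matches in *Hmgcs1*, 3 in *Msmo1*, 2 in *Idi1* and 1 each in *Insig1* and *Tm7sf2*. RefSeq windows were found for 32 of the 41 genes, among them 16 SREBP2 targets. A CCAAT box was present in 15 of these 16 (93.8%), in 2 of 5 SREBP1 targets and in 2 of 3 LXR targets, against 41.1% of all 27025 genes with a window and 42.1% of those tested here. The SREBP2 target without one was *Acat2*. The box was also present in *Ebp*, the SREBP2 target that did not fall (described further on). The 15 genes held 33 matches, of which 30 lay before the start, at a median of 61 bases and between 12 and 237 bases from it. CACNCCAC was found in 3 of the 16 SREBP2 targets, *Acat2*, *Hmgcs1* and *Insig1* (18.8%, against 7.12% of all genes), and TCACNCCA in *Hmgcs1* and *Msmo1* (2 of 16, against 4.97% of all genes). The regulator *Srebf2* also held TCACNCCA. The E-box CACGTG, another sequence to which SREBPs can bind, was found in 4 of the 16 SREBP2 targets and in 8.09% of all genes. A match is a description of letters in a window and not evidence of binding.

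The SREBP2 targets were 18 enzymes from acetyl-CoA to cholesterol, the sterol carrier *Stard4* and the feedback regulator *Insig1*. Of these 20 genes, sorted into the class with earlier results of these data known, 19 fell, none rose, and *Ebp* did not pass the test. Among all genes tested, 22.4% fell and 21.1% rose. The log2 fold changes of the 20 genes ranged from -1.63 to -0.00 with a median of -0.67. In the 19 genes that fell every LiCl sample was below every control, which held for 27.8% of all genes tested. The summed level of the 20 genes was 1546, 1405 and 1323 CPM in control replicates 1 to 3 and 841, 856 and 874 CPM in LiCl replicates 1 to 3, so that the LiCl mean was 60.2% of the control mean.

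*Insig1*, whose product retains SCAP and whose gene is itself a target of SREBP2, changed most among the 41 genes. It was at 67.4, 64.6 and 57.2 CPM in the controls and at 20.1, 20.3 and 20.6 CPM with LiCl. The LiCl samples differed from each other by less than 1 CPM and lay far below the lowest control. The log2 fold change was -1.63 (SE 0.07, adjusted p = 5.27e-07 by edgeR, n = 3 per group), that is a 3.10-fold lower level.

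The mevalonate part of the pathway, from acetyl-CoA to farnesyl pyrophosphate, was represented by *Acat2*, *Hmgcs1*, *Mvk*, *Pmvk*, *Mvd*, *Idi1* and *Fdps*, and all 7 genes fell. *Hmgcs1*, encoding the synthase that makes HMG-CoA, was at 289.6, 262 and 237 CPM in the controls and at 106, 109 and 112 CPM with LiCl. No LiCl sample reached the lowest control, and the log2 fold change was -1.27 (SE 0.07, adjusted p = 2.16e-06 by edgeR). *Idi1*, the isomerase of the activated isoprene units, was at 37.2, 34.4 and 32.8 CPM in the controls and at 15.2, 15.5 and 17.0 CPM with LiCl. Here too the groups were apart, with a log2 fold change of -1.13 (SE 0.07, adjusted p = 5.03e-06). *Fdps*, the synthase of farnesyl pyrophosphate, was the least abundant SREBP2 target per length, at a control mean of 2.08 FPKM. Its levels were 10.3, 8.05 and 8.29 CPM in the controls and 4.54, 3.65 and 5.18 CPM with LiCl, and its log2 fold change of -0.99 (SE 0.16, adjusted p = 0.000929) lay just short of the fold threshold of the study.

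The remaining mevalonate enzymes changed less. *Mvd*, the decarboxylase, had a log2 fold change of -0.65 (SE 0.08) and *Mvk*, mevalonate kinase, of -0.58 (SE 0.06). *Acat2*, the thiolase at the entry of the pathway, and *Pmvk*, the kinase that follows *Mvk*, were at -0.36 (SE 0.08) and -0.33 (SE 0.08). *Pmvk* ranged from 29.5 to 35.4 CPM in the controls and from 24.8 to 28.0 CPM with LiCl, so the groups were close but did not overlap. Several of these genes share sequence with other genes of an older annotation, through overlap at the same place or through copies elsewhere. More than 10% of the 50-base words of their transcripts also occurred in another gene for *Acat2* (39.1%), *Idi1* (25.3%), *Fdps* (26.2%) and *Hmgcs1* (11.6%), and for *Fdft1* (26.5%) among the later enzymes and *Acaca* (30.4%) among the fatty acid genes, so the counts of these 6 genes are less certain. For *Fdps*, 26.7% of the exon bases were shared with Gm43738 on the same strand. On the other strand, 12.1% of the *Hmgcs1* exon bases were shared with Gm48342, 9.22% of those of *Idi1* with Gm48574 and 18.3% of those of *Fdft1* with Ctsb. *Acat2* and *Acaca* had no such overlap.

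The sterol part of the pathway, from squalene to cholesterol, was represented by 11 SREBP2 targets, of which 10 fell. *Tm7sf2*, a sterol reductase of the endoplasmic reticulum, was at 26.1, 28.1 and 23.7 CPM in the controls and at 12.4, 10.8 and 9.08 CPM with LiCl. Its log2 fold change was -1.27 (SE 0.11, adjusted p = 3.67e-05 by edgeR), with no overlap of the groups. In an older annotation 12.1% of its exon bases were shared with *Vps51* on the same strand, so that some of its reads may have been left unassigned or given to that gene. *Msmo1*, an oxidase that removes methyl groups from sterols, was at 76.1, 70.5 and 59.95 CPM in the controls and at 33.5, 33.1 and 33.6 CPM with LiCl. The LiCl samples again lay within 1 CPM of each other, and the log2 fold change was -1.04 (SE 0.08, adjusted p = 1.73e-05).

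*Fdft1* and *Sqle*, which make and oxidize squalene at the branch committed to sterols, had log2 fold changes of -0.70 (SE 0.07) and -0.76 (SE 0.05). *Sqle* was at 120.1, 112 and 107 CPM in the controls and at 67.4, 65.9 and 67.2 CPM with LiCl, without overlap. *Nsdhl*, a dehydrogenase that works after *Msmo1*, was at -0.81 (SE 0.08), and *Lss*, the cyclase that makes lanosterol, at -0.58 (SE 0.09). Smaller changes were measured for *Cyp51*, the lanosterol demethylase (-0.43, SE 0.06), for *Dhcr7*, the reductase of the last step (-0.38, SE 0.06), for *Sc5d*, a sterol desaturase (-0.29, SE 0.08), and for *Hsd17b7*, a sterol ketone reductase (-0.29, SE 0.07). All 8 of these genes passed the test, with adjusted p between 8.51e-06 (*Sqle*) and 0.0133 (*Sc5d*). The size of the fall varied from step to step, and neighbouring enzymes such as *Idi1* (-1.13) and *Mvd* (-0.65), or *Msmo1* (-1.04) and *Tm7sf2* (-1.27) beside *Cyp51* (-0.43), did not share a log2 fold change.

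*Ebp*, the sterol isomerase of a late step, was the exception in its class. It was at 9.67, 12.6 and 10.1 CPM in the controls and at 11.0, 11.1 and 10.1 CPM with LiCl. The groups overlapped, and the log2 fold change was -0.00 (SE 0.12, adjusted p = 0.982). *Stard4*, a soluble carrier that moves cholesterol between membranes, followed the enzymes, with 112, 101 and 104 CPM in the controls and 57.2, 57.9 and 59.5 CPM with LiCl. Every LiCl sample was below every control, and its log2 fold change was -0.86 (SE 0.05, adjusted p = 3.92e-06 by edgeR).

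**Figure D2:**
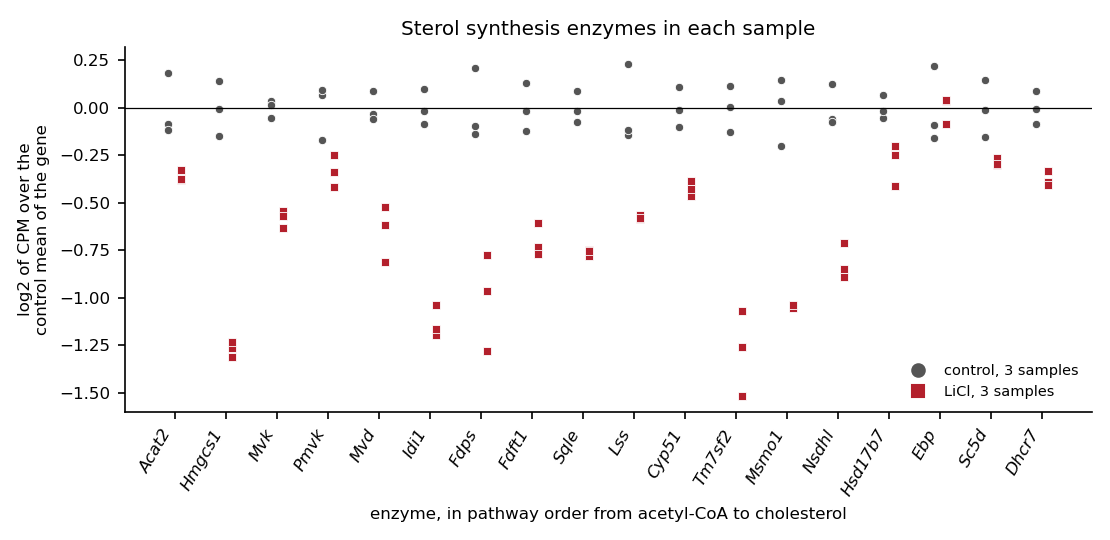
Level of the 18 sterol synthesis enzymes in each sample, as the log2 of CPM over the control mean of the gene (y axis), in pathway order from acetyl-CoA to cholesterol (x axis). Circles are the 3 control samples and squares the 3 LiCl samples. The squares lie below the circles in 17 of 18 enzymes and among them in Ebp.

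The controls were not alike. Control replicate 1 was the highest control in 16 of the 20 SREBP2 targets, and control replicate 3 in none. The median coefficient of variation over the 20 genes was 8.39% among the controls and 2.91% among the LiCl samples, and it was larger among the controls in 16 genes. Without control replicate 1 the median log2 fold change of the class was -0.62, and over all 6 omissions of 1 sample it stayed between -0.72 and -0.62.

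Markers of cell types and of proliferation also differed between the groups. For the counts below, 22.4% of all genes tested fell and 21.1% rose. The 7 markers of the ureteric epithelium summed to 1440, 1302 and 1144 CPM in control replicates 1 to 3. In LiCl replicates 1 to 3 they summed to 896, 867 and 858 CPM, with a mean at 67.4% of the control mean. The controls were in the same order as for the SREBP2 targets, and the LiCl samples were in the opposite order. Of these markers 6 fell, among them *Krt19* (-1.20) and *Cdh1* (-0.99), and *Epcam* rose (0.37). The 6 markers of the ureteric mesenchyme were in sum at 75.1% of the control mean, and 4 of them fell. *Foxf1* (0.08) and *Ptch1* (0.10) did not pass the test. Most of the sum was *Col1a1*, with a control mean of 2614 CPM of 4427 CPM. The 5 proliferation markers all rose and summed to 522 to 602 CPM in the controls and 1143 to 1406 CPM with LiCl. Macrophage markers overlapped between the groups in sum, with 80.5 to 134 CPM in the controls and 68.5 to 94.3 CPM with LiCl, and 5 of 9 fell and 1 rose. Endothelial, erythroid and neural markers overlapped in sum, and *Hba-a1*, which was higher, was the only gene of these 3 lists to pass the test. The part of these shifts in the fall of the sterol enzymes was not tested.

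**Figure D3:**
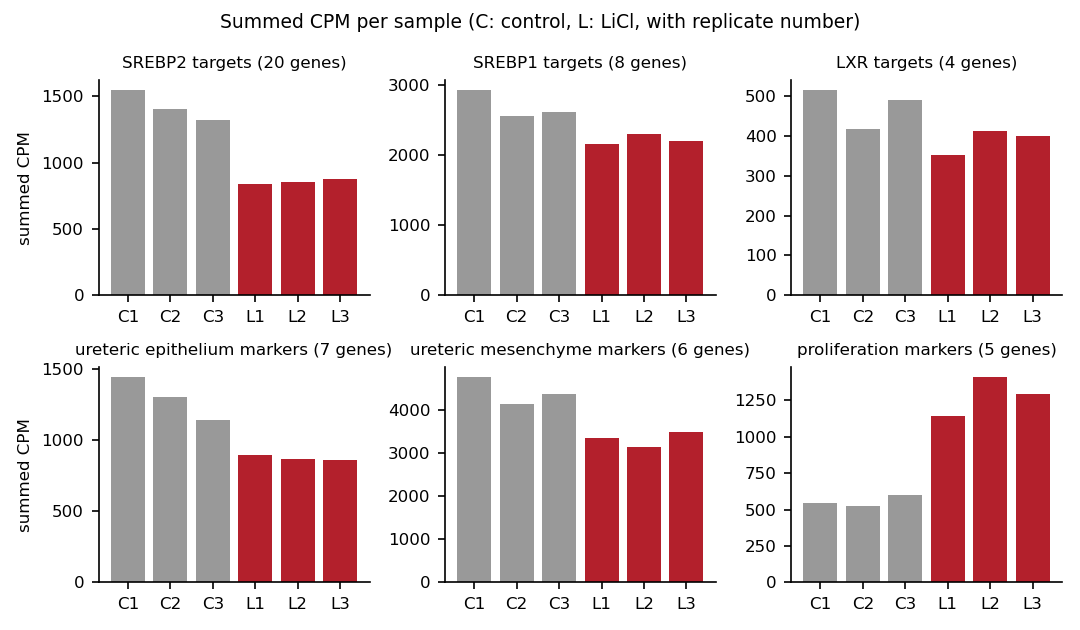
Summed CPM per sample (y axes, starting at 0) of the SREBP2, SREBP1 and LXR targets and of the markers of ureteric epithelium, ureteric mesenchyme and proliferation. Bars are single samples, with C for control and L for LiCl and the replicate number. The SREBP2 targets drop from 1323 to 1546 CPM in the controls to 841 to 874 CPM with LiCl, and the proliferation markers are higher with LiCl.

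Adipocyte markers were checked because mature fat cells express many fatty acid genes. Of the 4 markers listed, *Adipoq*, *Plin1* and *Cidec* were at or near 0 in all samples, with at most 0.196 CPM. The fourth, *Fabp4*, which endothelium and macrophages also express, was at 7.25 to 8.63 CPM in the controls and at 0.752 to 1.93 CPM with LiCl. It fell by 2.73 on the log2 scale (SE 0.28, adjusted p = 8.61e-05 by edgeR), and the summed level of the list was 15.3% of control with LiCl. Its part in the fall of the fatty acid genes was not tested.

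The SREBP1 targets were 8 genes of fatty acid synthesis and desaturation. Of these 5 fell and none rose, against 22.4% and 21.1% of all genes tested, and 3 did not pass the test. The median log2 fold change was -0.36. The summed level was 82.1% of control with LiCl, with 2552 to 2919 CPM in the controls and 2150 to 2298 CPM with LiCl. A large part of the sum was *Scd2*, with 1303 of 2694 CPM in the control mean and 1011 of 2213 CPM in the LiCl mean. Control replicate 1 was the highest control in all 8 genes, and without it the median was -0.31. Whether the SREBP1 and SREBP2 targets differed in their response was not tested.

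*Scd1*, *Elovl6* and *Fads2* had the largest changes in this class. *Scd1*, a stearoyl-CoA desaturase, was at 46.5, 40.3 and 41.4 CPM in the controls and at 26.0, 22.9 and 27.5 CPM with LiCl. No LiCl sample came near a control, and the log2 fold change was -0.75 (SE 0.08, adjusted p = 0.000127 by edgeR). Its paralog *Scd2* was the most abundant of all 41 genes per length, with a control mean of 236 FPKM. *Scd2* was at 1392, 1270.4 and 1246 CPM in the controls and at 1008, 1037 and 986 CPM with LiCl. This was a smaller change, -0.37 on the log2 scale (SE 0.05, adjusted p = 0.000409), without overlap. The FPKM ratio of *Scd1* to *Scd2* was 0.0355 to 0.0373 in the controls and 0.0246 to 0.0312 with LiCl.

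*Elovl6*, which elongates palmitate, fell by 0.46 on the log2 scale (SE 0.08), with 109 to 133 CPM in the controls and 83.1 to 88.5 CPM with LiCl. *Fads2*, a desaturase of polyunsaturated fatty acids, fell by 0.42 (SE 0.05), with 149 to 152 CPM in the controls and 108 to 117 CPM with LiCl. Its neighbour in the same biosynthetic route, *Fads1*, was at 192, 177 and 187 CPM in the controls and at 185, 186 and 187 CPM with LiCl, and the log2 fold change was 0.00 (SE 0.05, adjusted p = 0.963). *Fads1* and *Fads2* thus lay on different sides of the threshold, though their difference was not itself tested.

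*Acly*, which makes cytosolic acetyl-CoA from citrate and supplies sterol and fatty acid synthesis alike, was at 357, 316 and 328 CPM in the controls and at 248, 277 and 255 CPM with LiCl. It fell by 0.36 on the log2 scale (SE 0.06, adjusted p = 0.00132) without overlap. The synthesis enzymes that follow did not pass the test. *Acaca*, acetyl-CoA carboxylase, was at 111, 79.3 and 93.3 CPM in the controls and at 62.9, 89.5 and 82.0 CPM with LiCl, with a log2 fold change of -0.27 (SE 0.14, adjusted p = 0.148). *Fasn*, fatty acid synthase, was at 537, 412 and 453 CPM in the controls and at 427, 481 and 457 CPM with LiCl, with a log2 fold change of -0.04 (SE 0.09, adjusted p = 0.759). In both genes the groups overlapped, and control replicate 1 was the highest of all 6 samples.

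The LXR targets were the exporters *Abca1* and *Abcg1*, the transcription factor gene *Srebf1* and *Mylip*, a ubiquitin ligase that degrades lipoprotein receptors. Of these 3 fell, against 22.4% of all genes tested, and *Mylip* did not pass the test. The median log2 fold change was -0.29. *Abca1* was at 306, 212 and 293 CPM in the controls and at 164, 226 and 202 CPM with LiCl. The groups overlapped, since LiCl replicate 2 exceeded control replicate 2, and the log2 fold change was -0.45 (SE 0.15, adjusted p = 0.0307 by edgeR). The call was lost without control replicate 1 (adjusted p = 0.101), control replicate 3 (0.106), LiCl replicate 1 (0.0877) or LiCl replicate 3 (0.0704), and with DESeq2 (0.0772). *Abcg1* was at 10.9, 10.2 and 13.3 CPM in the controls and at 7.92, 9.20 and 9.51 CPM with LiCl, which did not overlap. Its log2 fold change was -0.37 (SE 0.13, adjusted p = 0.0382), and this call was lost when any sample other than control replicate 2 was left out (adjusted p from 0.0533 to 0.156).

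*Srebf1*, which encodes SREBP1, was at 89.6, 90.7 and 82.7 CPM in the controls and at 76.9, 74.2 and 75.1 CPM with LiCl. It fell by 0.22 on the log2 scale (SE 0.05, adjusted p = 0.00788) without overlap. *Mylip* was at 108, 105 and 102 CPM in the controls and at 104, 104 and 113 CPM with LiCl. Its groups overlapped, with a log2 fold change of 0.03 (SE 0.05, adjusted p = 0.678).

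Among the regulators, the genes of the SREBP system did not move in 1 direction. *Srebf2*, which encodes SREBP2, was at 262, 246 and 255 CPM in the controls and at 198, 204 and 215 CPM with LiCl. It fell by 0.31 on the log2 scale (SE 0.05, adjusted p = 0.000982 by edgeR) without overlap. *Scap*, the escort of the SREBPs, was at 63.3, 68.0 and 65.7 CPM in the controls and at 82.6, 80.0 and 86.4 CPM with LiCl. Every LiCl sample was above every control, and the log2 fold change was 0.34 (SE 0.05, adjusted p = 0.000771). Of the *Scap* exon bases, 13.2% were overlapped by a gene on the other strand in the older annotation, and the strand setting of the counting was not given in the sources used here.

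*Insig2*, the paralog of *Insig1*, was at 25.3, 23.5 and 23.6 CPM in the controls and at 25.4, 23.2 and 23.1 CPM with LiCl. The groups overlapped, with a log2 fold change of -0.01 (SE 0.07, adjusted p = 0.893). Per length, the ratio of *Insig1* to *Insig2* was 2.99, 3.09 and 2.72 in the controls and 0.890, 0.983 and 1.00 with LiCl. *Insig1* was the more abundant of the pair in every control, and the pair stood at about equal FPKM with LiCl.

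The LXR genes themselves were at very different levels. *Nr1h3*, which encodes LXR alpha, was the least abundant of the 41 genes per length, with a control mean of 0.919 FPKM. It was at 1.95, 2.51 and 2.55 CPM in the controls and at 2.99, 3.22 and 3.94 CPM with LiCl, and it rose by 0.53 on the log2 scale (SE 0.18, adjusted p = 0.0402). This call was lost when any sample other than LiCl replicate 1 was left out (adjusted p from 0.0586 to 0.144). *Nr1h2*, which encodes LXR beta, was at 57.5, 67.5 and 64.9 CPM in the controls and at 75.2, 67.5 and 69.2 CPM with LiCl. The lowest LiCl sample and the highest control were nearly equal, and the log2 fold change of 0.16 (SE 0.07, adjusted p = 0.0957) did not pass the test.

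**Figure D4:**
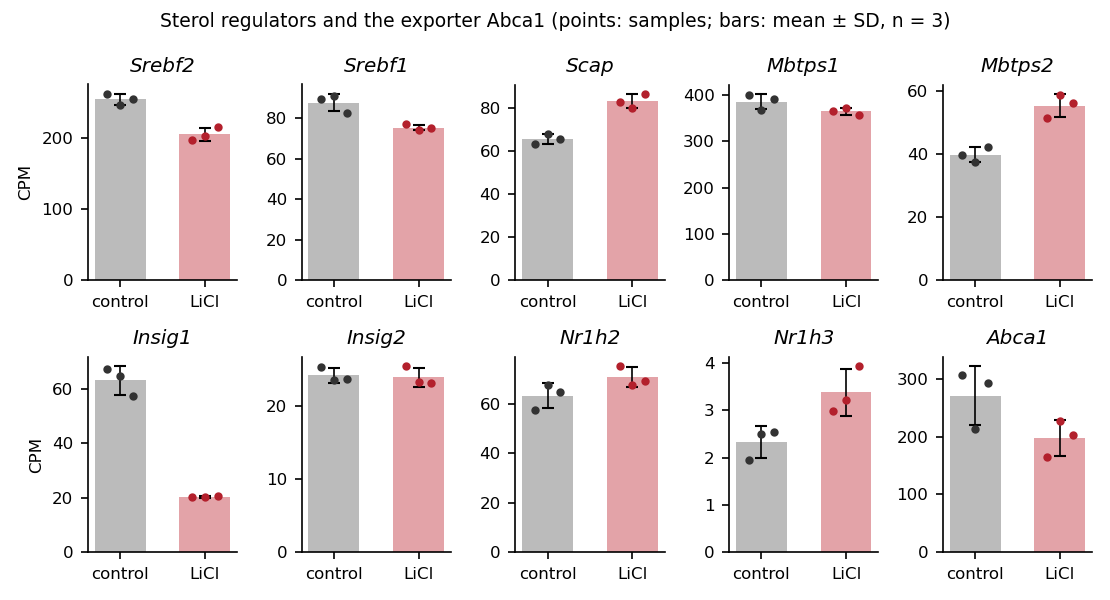
CPM (y axes, starting at 0) of regulators of sterol synthesis and of the exporter Abca1 in 3 control and 3 LiCl samples. Points are samples, bars are means and error bars are the SD (n = 3 per group). Insig1 drops from 57.2 to 67.4 CPM in the controls to 20.1 to 20.6 CPM with LiCl, Insig2 overlaps between the groups, and Scap and Mbtps2 are higher with LiCl.

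NPC1 and NPC2 hand cholesterol out of the lysosome after lipoprotein uptake. *Npc2* was at 207, 234 and 217 CPM in the controls and at 272, 268 and 260.1 CPM with LiCl. It rose by 0.28 on the log2 scale (SE 0.05, adjusted p = 0.00245 by edgeR) without overlap. *Npc1* ranged from 82.4 to 88.2 CPM in the controls and from 84.0 to 89.9 CPM with LiCl, with a log2 fold change of 0.04 (SE 0.05, adjusted p = 0.542).

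Of the 2 enzymes outside the classes, *Lbr* rose and *Ggps1* did not pass the test. *Lbr*, a protein of the inner nuclear membrane that carries the same sterol reductase activity as *Tm7sf2*, was at 52.8, 50.7 and 53.6 CPM in the controls and at 66.4, 67.0 and 68.1 CPM with LiCl. All LiCl samples were above all controls, and *Lbr* rose by 0.36 on the log2 scale (SE 0.05, adjusted p = 0.000348), whereas *Tm7sf2* fell. *Ggps1*, which makes geranylgeranyl pyrophosphate for protein prenylation, was at 44.5, 43.4 and 43.5 CPM in the controls and at 40.4, 42.5 and 37.0 CPM with LiCl. These did not overlap, but the log2 fold change of -0.13 (SE 0.06, adjusted p = 0.111) did not pass the test.

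Further genes of lipid metabolism were examined in 7 lists of 63 genes, of which 62 were tested. In these lists 15 genes rose (24.2%, against 21.1% of all genes tested) and 10 fell (16.1%, against 22.4%), and none met the thresholds of the study. Their median log2 fold change was -0.05.

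Of 10 genes of SREBP processing and sterol sensing, 5 rose and none fell, with a median of 0.13. The largest change was that of *Mbtps2*, the second protease that frees SREBP, at 39.8, 37.5 and 42.2 CPM in the controls and 51.3, 58.7 and 56.1 CPM with LiCl (log2 fold change 0.48, SE 0.07, adjusted p = 0.000510). *Mbtps1*, the first protease, did not pass the test (-0.08, SE 0.05, adjusted p = 0.187). The 10 genes of sterol transport and esterification held 2 that rose and 1 that fell, and they ranged from *Gramd1a*, an intermembrane sterol transporter (-0.19), to *Soat1*, which esterifies cholesterol (0.28). The other 7 did not pass the test. Among them were *Tmem97* (0.17, SE 0.06, adjusted p = 0.0574 by edgeR), with every LiCl sample above every control, and *Erg28* (-0.06, SE 0.06, adjusted p = 0.503).

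Of 8 tested genes of acetyl-CoA and fatty acid supply, 3 fell and 1 rose. *Me1*, the malic enzyme that yields NADPH, was at 31.7, 29.8 and 27.0 CPM in the controls and at 17.0, 19.6 and 17.7 CPM with LiCl, and it had the lowest log2 fold change of its list at -0.71 (SE 0.08, adjusted p = 0.000168). *Slc25a1*, the mitochondrial citrate carrier that feeds *Acly*, fell by 0.65 (SE 0.05) and *Aacs*, which activates acetoacetate for lipid synthesis, by 0.57 (SE 0.06). *Mid1ip1*, a protein that promotes polymerization of acetyl-CoA carboxylase, rose by 0.26 (SE 0.06).

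In the list of fatty acid elongation and activation 2 of 12 genes rose and 1 fell, from *Acsl4*, an acyl-CoA synthetase (-0.24), to *Hacd3*, a dehydratase of elongation (0.26). Of 7 genes of glycerolipid synthesis and storage 3 fell and none rose. The lowest was *Pnpla2*, a triglyceride lipase, at 17.3, 19.5 and 19.2 CPM in the controls and 10.1, 11.2 and 10.1 CPM with LiCl (log2 fold change -0.83, SE 0.09, adjusted p = 8.56e-05). The others that fell were *Lpin1*, a phosphatidate phosphatase (-0.78), and *Dgat2*, an acyltransferase of triglyceride synthesis (-0.49). *Plin2*, which coats lipid droplets, was the highest of this list at 0.04 and did not pass the test.

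Among 5 further LXR targets and partners, *Pltp*, a phospholipid transfer protein, rose by 0.42 on the log2 scale (SE 0.05) and *Lpcat3*, a phospholipid acyltransferase, fell by 0.31 (SE 0.06), so these LXR targets moved in opposite directions. Of 10 genes of the isoprenoid branches that leave the pathway at farnesyl pyrophosphate or before it, 4 rose and 1 fell. *Pdss1*, which builds the side chain of ubiquinone, was at 7.76, 8.60 and 8.65 CPM in the controls and at 13.9, 12.4 and 15.3 CPM with LiCl, and had a log2 fold change of 0.73 (SE 0.10, adjusted p = 0.000534 by edgeR). *Coq2*, which attaches that chain, fell by 0.28 (SE 0.07).

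**Figure D5:**
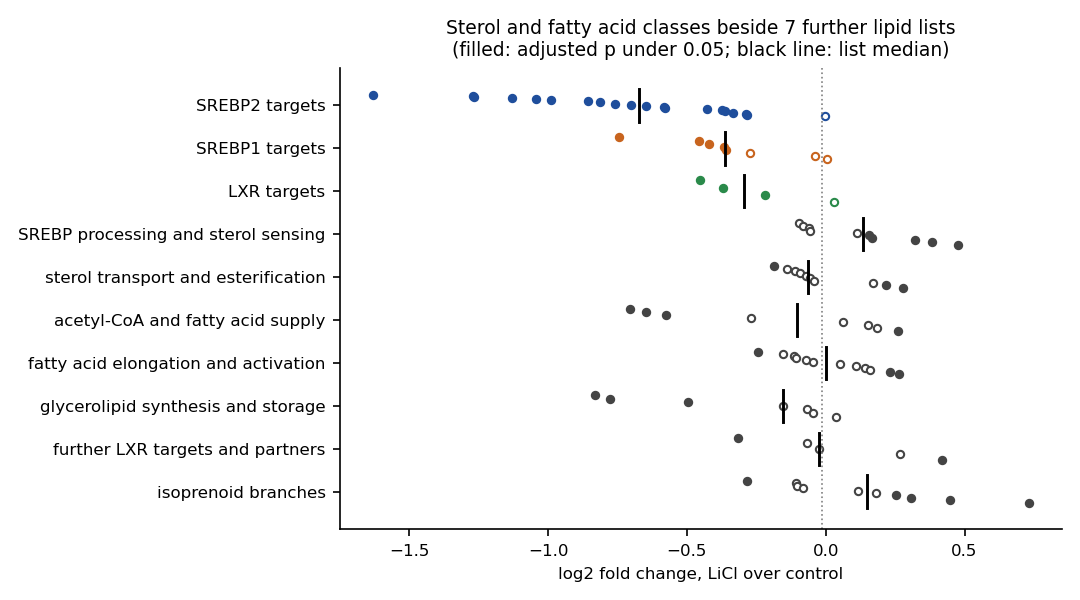
Log2 fold change of LiCl over control (x axis) for each gene of the SREBP2, SREBP1 and LXR targets and of 7 further lipid lists. Filled points had an adjusted p under 0.05, black lines are list medians and the dotted line is the median of all genes tested. The median of the SREBP2 targets is -0.67, and the medians of the 7 further lists lie between -0.15 and 0.15.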

How the data were processed

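Total RNA of E12.5 ureter explants (3 LiCl and 3 control samples) was made into poly-A selected, stranded libraries and sequenced in pairs. The authors deposited raw counts per Ensembl gene identifier, without normalization, and FPKM per sample. The methods of the study name HISAT2 and featureCounts with the build GRCm39, whereas the submitters' processing notes list fastp 0.23, STAR 2.7, featureCounts 2.0 and DESeq2 1.40, so the aligner is uncertain. The annotation release and the strand setting were not given in the sources used here. The deposited FPKM matched counts divided by DESeq2 size factors and a gene length to within rounding in 13480 genes.

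The 41 genes, their classes and all gene lists were chosen with earlier results of these data known. Symbols came from GENCODE vM21 (GRCm38), which matched 52073 of 56748 identifiers, so no coordinates are given for the counts. The counts entered the quasi-likelihood test of edgeR 4.0.16 (R 4.3.3; filterByExpr, TMM, glmQLFit, glmQLFTest, Benjamini-Hochberg) for 18188 genes, with a common dispersion of 0.00665. At this dispersion the spread between samples and not the counting error limited the precision of all but the least abundant genes. Permutation of 3 against 3 samples cannot give a two-sided p below 0.1 and was not used. Within groups, chi-square per degree of freedom was 5.93 to 14.5 between samples, so every pair differed by more than sampling noise. Named were all 41 genes and, of each further list, the tested genes with the highest and the lowest log2 fold change and any past the thresholds of the study, of which 1 is not reported here. Other genes of these lists (Mbtps1, Tmem97, Erg28, Slc25a1, Aacs, Lpin1, Dgat2) and the markers named were picked with their values in view.

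The settings varied were the scaling (RLE size factors, or the library size alone), the tool (DESeq2 1.42.0), 3 other filters (10 or more counts in at least 3 samples or in every sample, and none), the replicate number as a block, each sample left out in turn, limma 3.58.1 on log2(FPKM + 1) or log2(FPKM + 0.1) above a mean FPKM of 0.5, the former also unfiltered, and glmTreat. The omission of LiCl replicates 1 and 3 together was added after the data were seen. Promoters were RefSeq windows of 300 bases on GRCm38.p6, and shared words of 50 bases and exon overlaps were computed from GENCODE vM21. The scripts were tested on simulated counts. The authors' own comparisons were not used.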

Additional observations from a re-analysis of the deposited data

How the results depend on the processing

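No log2 fold change of a called gene changed sign under any of the 17 alternatives run for each gene. Of the values for single genes, 660 kept their side of the threshold, 35 lost it and 2 gained it, the latter being *Nr1h2* (adjusted p = 0.0295) and *Acaca* (0.0201) without a filter on low counts. *Abca1*, *Abcg1* and *Nr1h3* made up most of the losses, with 10, 9 and 9 of 17. DESeq2 gave 27 lower and 3 higher genes, where edgeR gave 28 and 4.

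At the thresholds of the study 5 genes were lower, but 2 with limma on log2(FPKM + 1), filtered or not, and 2 with glmTreat, which tests whether a change exceeds the fold threshold; with glmTreat these were *Insig1* (adjusted p = 0.00016) and *Hmgcs1* (0.0237). With limma on log2(FPKM + 1), filtered or not, the median log2 fold change was -0.59 for SREBP2 targets and -0.19 for LXR targets, since the pseudocount pulls low values together. With library size only the median of the SREBP1 targets was -0.40. Without LiCl replicates 1 and 3 together it was -0.29, and that of the LXR targets was -0.24. With 1 sample left out, lower genes numbered 26 to 28 and higher genes 3 to 4, those lower at the study thresholds 4 to 6, and the medians were -0.72 to -0.62 (SREBP2), -0.39 to -0.31 (SREBP1) and -0.31 to -0.25 (LXR).

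Samples sharing a replicate number had deviations that correlated at -0.01, -0.18 and 0.13 across genes. With 3 samples per group, these correlations cannot decide whether the replicate numbers paired the samples. With the replicate number as a block 27 genes were lower and 4 higher, *Abca1* being lost (adjusted p = 0.0782). With 3 samples per group and standard errors of about 0.05 to 0.18, log2 fold changes near 0.1 were not detectable for most of these genes.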

Other observations

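*Fabp4*, a fatty acid binding protein of adipocytes, endothelium and macrophages, belonged to the list of adipocyte markers and was singled out after its values were seen. It was at 8.63, 7.25 and 7.93 CPM in the controls and at 1.93, 0.752 and 0.851 CPM with LiCl. Every LiCl sample was below every control, and the log2 fold change was -2.73 (SE 0.28, adjusted p = 8.61e-05 by edgeR, n = 3 per group). The defining adipocyte markers *Adipoq*, *Plin1* and *Cidec* were at or near 0 in every sample. None of the 5 endothelial markers passed the test. Their log2 fold changes ranged from -0.30 (*Kdr*, adjusted p = 0.0518 by edgeR) to 0.03 (*Tie1*, adjusted p = 0.834). Of 9 macrophage markers 5 fell and 1 rose, against 22.4% and 21.1% of all genes tested. The part of these cell types in the level of *Fabp4* was not tested.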
